A study of Mus musculus with 15 samples.

Results

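Glutathione S-transferases join glutathione to reactive compounds, and the 10 members described here are Gsta1, Gsta2, Gsta3 and Gsta4 of the alpha class, Gstm1, Gstm2 and Gstm3 of the mu class, Gstp1 of the pi class, Gstt1 of the theta class and Gstk1 of the kappa class. They were chosen by name and found by Ensembl gene ID: 10 of the 56980 genes in the count table. The livers came from male wild-type C57BL/6J mice that were put on 1 of 3 diets at 15 weeks of age and stayed on it for 9 months. Every sample title of all 3 diets also carries the tag ALF, whose meaning is not interpreted here. The control diet held 10% fat, the high-fat diet 60% fat and the ketogenic diet 89.9% fat, and no gene was altered in any group. Polyadenylated RNA was sequenced from 5 libraries of each diet, but the submitters excluded control replicate 1 as contaminated and it enters no comparison here, so 4 control libraries were used. Whether every library comes from its own mouse is not in the labels, and p-values therefore cover only the spread from sample to sample, which may be technical.

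The liver holds large amounts of these enzymes, which attach the sulfur of glutathione to electrophiles so that the product can be exported and excreted. The alpha class also handles peroxides and aldehydes that arise when membrane lipids are oxidised, the mu class epoxides and quinones, and the theta class small halogenated compounds, while the kappa enzyme sits in mitochondria and peroxisomes. Several of the genes are induced by the transcription factor NRF2 under oxidative or electrophilic stress and by the xenobiotic receptors CAR and PXR, and in mouse liver the pi class is known as a male-biased enzyme.

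Total counts ran from 16329425 to 25349148 per library. Levels are TMM-scaled CPM, which are counts relative to the size of the library, and ± stands for the SD over libraries (n = 4 for control, n = 5 for high-fat and n = 5 for ketogenic). On the first principal component of all genes (34.4% of the variance), high-fat replicate 1 lay at -15.7, between the controls (-50.7 to -41.9) and the other high-fat libraries (17.6 to 34.6). On the second component (16.5%), ketogenic replicate 5 lay at 26.2 and the other ketogenic libraries between -51.9 and -23.3. Results are therefore also given without these 2 libraries, a choice made after seeing the data. The sum of 12 hepatocyte markers lay between 162869 and 195448 CPM in control, between 115594 and 154069 in high-fat and between 90818 and 148896 in ketogenic livers, and no marker was at 0 in all libraries. Controls did not overlap with either other group in this sum. Among single genes, 6.79% in high-fat and 5.17% in ketogenic livers lay below all controls. Alb alone was at 80690 ± 9866 CPM in high-fat and 76405 ± 18162 in ketogenic livers, a large part of the sum. In edgeR 1 of 12 markers was called lower in high-fat (8.33%) and 2 of 12 in ketogenic livers (16.7%). Over all genes 12.0% and 12.1% were called in either direction. The part of this sum in the transferase values was not tested. In whole tissue, fewer cells of a type and less RNA per cell cannot be told apart.

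Sequence likeness decides how far single members can be read, since the sources used here do not say how reads that match several genes were counted. Each 50-base window of a member's principal transcript was looked up in the transcripts of 32 other glutathione transferase genes and gene models (GENCODE M21, build GRCm38). For Gsta3, Gsta4, Gstt1 and Gstk1, 100% of windows were found in no other transcript. The share was 98.9% for Gstm2, 89.1% for Gstm1 and 84.2% for Gstm3. It was only 37.7% for Gstp1, 36.5% for Gsta2 and 10.3% for Gsta1. The coding sequence of Gsta1 was 99.7% identical to that of Gm3776, a gene model of the same cluster, and 98% identical to that of Gsta2, and Gstp1 was 98.1% identical to Gstp2.

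**Figure D1:**
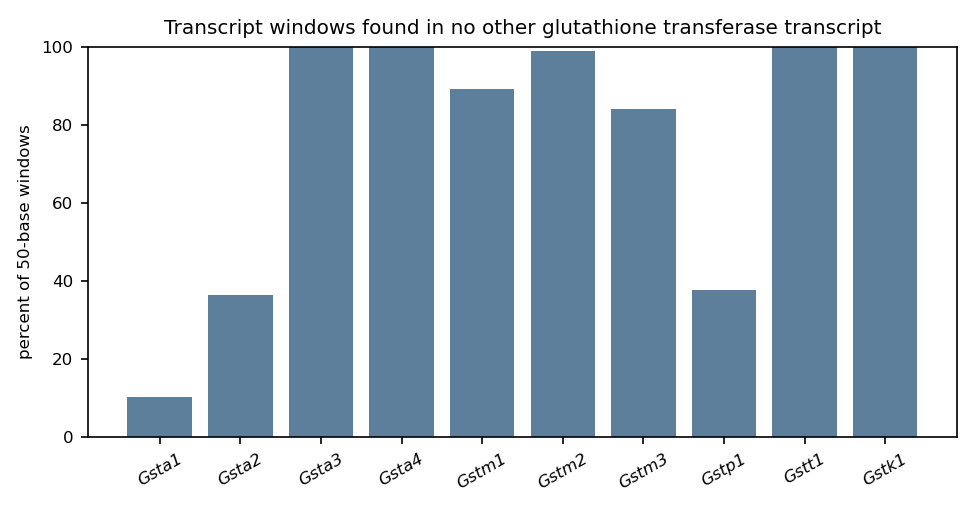
Percent of the 50-base windows of each member's principal transcript (vertical axis) that occur in no other glutathione transferase transcript, for the 10 members (horizontal axis). Gsta1 (10.3%), Gsta2 (36.5%) and Gstp1 (37.7%) have the lowest shares, and these are the members whose single values depend most on how shared reads were counted.

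A stretch of the coding sequence that separates Gsta1 from Gsta2 is shown, since 653 of 666 aligned coding bases are identical. The first 196 coding bases of both are the same. Of the transcript windows of Gsta1, 44.6% were also found in Gsta2 and 82.9% in Gm3776. The lines give coding bases 421 to 510 on chromosome 9 genes, 5′ to 3′, and capitals mark bases that differ from Gsta1.
Gsta1: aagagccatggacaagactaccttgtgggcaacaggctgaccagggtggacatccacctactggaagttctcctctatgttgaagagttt
Gsta2: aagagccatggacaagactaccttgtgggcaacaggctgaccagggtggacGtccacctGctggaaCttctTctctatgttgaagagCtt
Gm3776: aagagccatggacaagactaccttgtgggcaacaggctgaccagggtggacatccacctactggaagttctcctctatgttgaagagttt
Gsta2 differs from Gsta1 at 5 of these 90 bases and Gm3776 at 0.

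The promoters of the members with the largest differences between diets are shown next, with the close copy of each, since the copies share promoter sequence as well as coding sequence. They are RefSeq windows of 250 bases before to 50 bases after the start site, on build GRCm38.p6, and 9 of the 10 members matched an entry. The first pair is Gsta1 at chr9:78230419-78230718, plus strand, and Gsta2 at chr9:78347096-78347395, minus strand. Capitals mark runs of at least 10 bases that both share.
Gsta1 promoter: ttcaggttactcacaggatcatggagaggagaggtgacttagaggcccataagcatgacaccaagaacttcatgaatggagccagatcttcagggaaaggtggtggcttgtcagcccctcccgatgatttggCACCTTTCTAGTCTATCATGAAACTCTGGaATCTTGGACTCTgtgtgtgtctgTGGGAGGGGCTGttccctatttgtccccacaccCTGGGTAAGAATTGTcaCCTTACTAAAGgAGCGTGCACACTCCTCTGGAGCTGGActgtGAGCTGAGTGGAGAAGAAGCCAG
Gsta2 promoter: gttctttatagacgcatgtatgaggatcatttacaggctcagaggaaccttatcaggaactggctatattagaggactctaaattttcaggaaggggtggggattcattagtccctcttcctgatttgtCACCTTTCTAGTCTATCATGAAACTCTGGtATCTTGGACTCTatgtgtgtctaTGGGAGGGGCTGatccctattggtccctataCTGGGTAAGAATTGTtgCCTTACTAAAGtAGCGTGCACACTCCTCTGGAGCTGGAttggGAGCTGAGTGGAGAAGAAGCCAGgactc
Over the whole alignment, 232 of 289 bases (80.3%) were identical. The 7 shared runs of at least 10 bases hold part of these, and the longest run held 29 bases.

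The second pair is Gstp1 at chr19:4037863-4038162 and Gstp2 at chr19:4042172-4042471, both on the minus strand. Capitals mark a match to TGANTCAGC, letters close to those bound by AP-1 and NRF2 family dimers, searched on both strands.
Gstp1 promoter: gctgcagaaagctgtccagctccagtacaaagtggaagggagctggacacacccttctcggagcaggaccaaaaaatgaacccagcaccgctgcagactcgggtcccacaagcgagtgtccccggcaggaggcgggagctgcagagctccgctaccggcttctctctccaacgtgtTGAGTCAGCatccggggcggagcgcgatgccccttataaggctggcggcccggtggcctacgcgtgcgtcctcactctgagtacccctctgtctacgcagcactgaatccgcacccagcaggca
Gstp2 promoter: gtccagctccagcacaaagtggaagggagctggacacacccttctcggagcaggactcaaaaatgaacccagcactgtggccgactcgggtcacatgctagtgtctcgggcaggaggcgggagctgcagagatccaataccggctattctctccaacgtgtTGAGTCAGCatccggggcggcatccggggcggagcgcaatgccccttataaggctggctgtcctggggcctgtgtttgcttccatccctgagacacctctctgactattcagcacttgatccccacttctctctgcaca
Here 241 of 284 aligned bases (84.9%) were identical. The match, TGAGTCAGC, began at -74 from the start site in Gstp1 and at -89 in Gstp2. These letters were searched only after the promoters had been read, and 1.19% of 32851 promoters of the same length hold them (1.37% of 27025 genes). The core antioxidant response element TGACNNNGC, searched on both strands, was found in 12.4% of the 32851 promoters and in 14% of the 27025 genes. Of the 9 members it was found in 1, Gsta3, at -121. A missing match says only that these letters are not in this window.

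Gstp1 made up a smaller part of the glutathione S-transferase transcripts in every high-fat library than in any control, while the summed level of the members overlapped between the diets. The 10 members summed to 4745 ± 543 CPM in control, 4356 ± 645 in high-fat and 4171 ± 566 in ketogenic livers, and the ranges overlapped (4135 to 5268, 3552 to 5285 and 3503 to 4983 CPM). Gstp1 made up 35.1 ± 4.23% of the sum in controls, 12.7 ± 4.01% in high-fat and 17.5 ± 8.77% in ketogenic livers. The lowest and highest shares were 30% and 40.3% in controls and 8.55% and 18.9% in high-fat livers, so these did not overlap, whereas ketogenic replicate 4, at 30.1%, reached the lowest control. The share of Gsta3 was 38.2 ± 2.85%, 47.9 ± 2.90% and 42.5 ± 6.91%, and that of Gstm1 18.1 ± 2.23%, 24.9 ± 5.17% and 25.9 ± 9.58%. These shares were not tested and, since they add up to the whole, a lower share of 1 member raises the others.

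**Figure D2:**
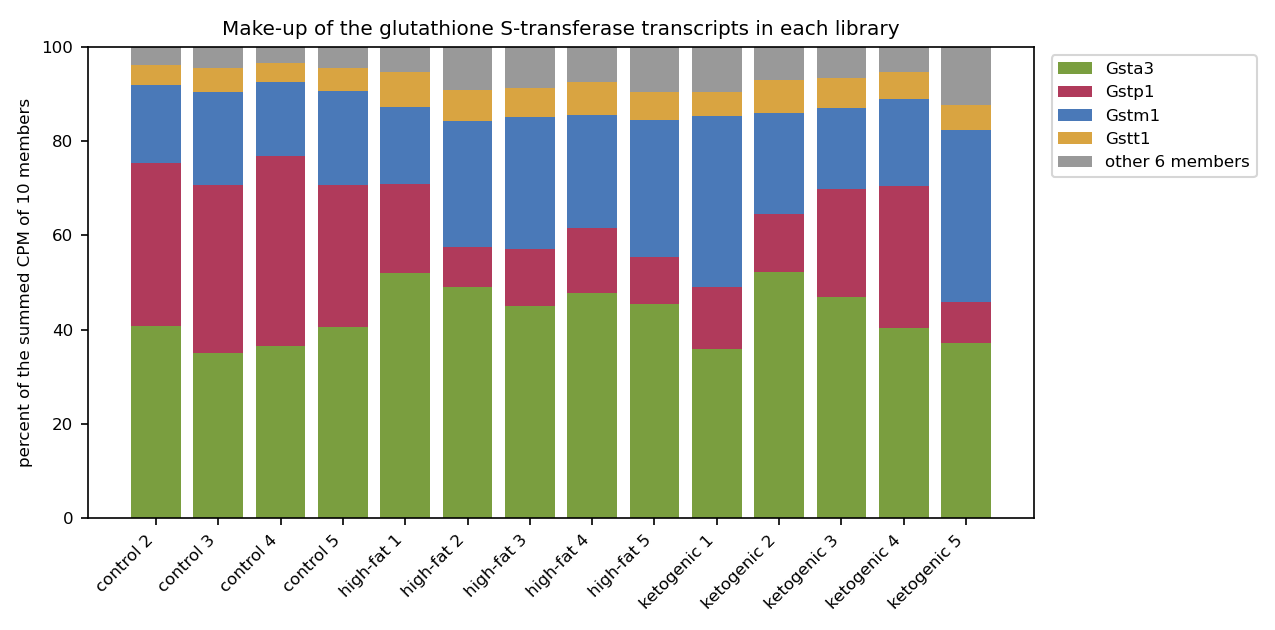
Percent of the summed CPM of the 10 members (vertical axis) taken by Gsta3, Gstp1, Gstm1, Gstt1 and the other 6 members, for each of the 14 libraries (horizontal axis, diet and replicate). The Gstp1 part takes 30% to 40.3% in the 4 control libraries and 8.55% to 18.9% in the 5 high-fat ones, with a spread of 8.75% to 30.1% in the ketogenic ones.

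Per kb of transcript, the order of the levels in controls was Gstp1 (2017 CPM per kb), Gsta3 (1253), Gstm1 (664), Gstt1 (207), Gstk1 (85.4), Gsta4 (50), Gstm2 (30.2), Gstm3 (19.1), Gsta2 (7.52) and Gsta1 (0.277). All neighbours in this order were apart in every control library except Gstm2 and Gstm3, whose ranges overlapped. In high-fat livers Gsta3 came first (1431 CPM per kb), before Gstm1 (840) and Gstp1 (672), with overlap between the first and the second and between the second and the third. In ketogenic livers Gsta3 (1225), Gstp1 (926) and Gstm1 (812) overlapped as neighbours in the same way. Gsta1 stayed last in both, at 9.32 and 12.1 CPM per kb. Gsta2 came just before it in high-fat livers (29.7) and came before Gstm2 in ketogenic ones (42.6 against 32.1), again with overlapping ranges. These values divide by the whole transcript, so the places of Gsta1, Gsta2 and Gstp1 depend on how shared reads were counted.

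**Figure D3:**
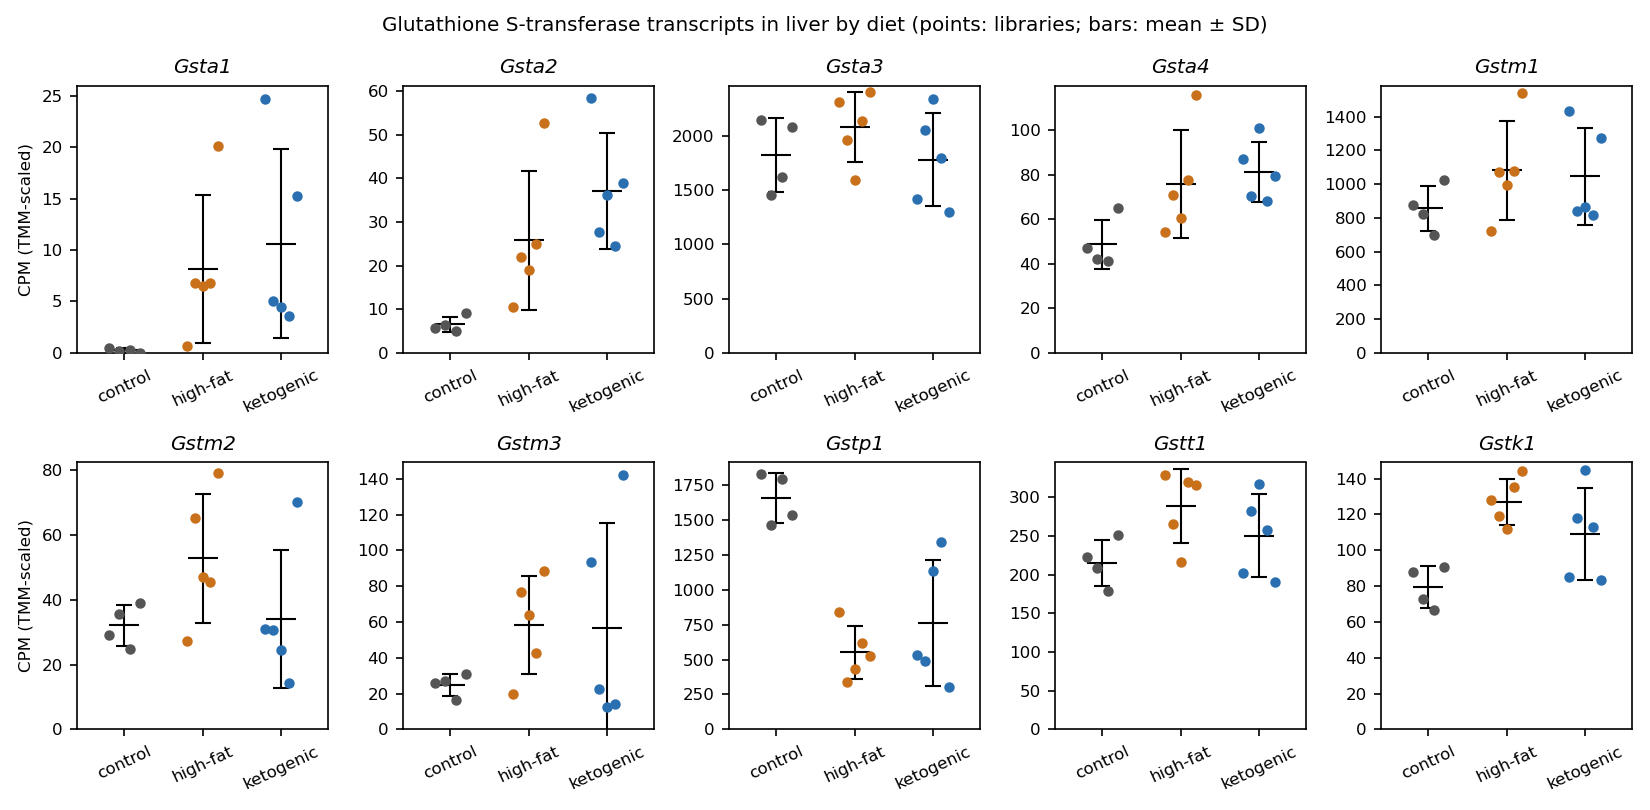
CPM (vertical axes, each from 0) of the 10 members in control, high-fat and ketogenic livers, with 1 point per library and bars for the mean and SD. Gstp1 lies between 1468 and 1828 CPM in controls and below that range in all libraries of the other diets, whereas Gsta2 lies between 5.02 and 9.08 CPM in controls and above that range in all of the others.

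In high-fat against control livers, 3 of the 10 members rose, Gsta1, Gsta2 and Gstk1, and 1 fell, Gstp1, in the quasi-likelihood test of edgeR, with p-values adjusted over all genes by the Benjamini-Hochberg method. All 10 passed the filter on low counts. Over the 14627 genes tested the share called was 12.0%, 6.95% higher and 5.01% lower. At an unadjusted p under 0.05 there were 6 of the 10, against 27.4% of all genes. In DESeq2 5 members passed, and 2441 of the 14627 genes did so in all. The median log2 fold change of the members was 0.66, against 0.0075 over all genes, and 9 of 10 were positive. The same 4 members, 3 higher and 1 lower, were also those whose CPM values did not overlap with control, against 16.2% of all genes (9.45% higher and 6.79% lower).

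In ketogenic against control livers 3 members rose, Gsta1, Gsta2 and Gsta4, and 0 fell, against 12.1% of all genes called (7.47% higher and 4.60% lower). In DESeq2 4 members passed, and 2422 of the 14627 genes did so in all. In edgeR 5 of the 10 had an unadjusted p under 0.05, against 28.0% of all genes. The median log2 fold change of the members was 0.37, against 0.0314 over all genes. The CPM values of 4 members did not overlap with control, 3 higher and 1, Gstp1, lower, against 12.5% of all genes (7.38% higher and 5.17% lower). Both comparisons share the 4 control libraries, so they are not independent of each other.

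Between ketogenic and high-fat livers 0 of the 10 members passed in edgeR and 0 in DESeq2, and 0 had an unadjusted p under 0.05 in edgeR, against 8.70% of all genes. Only 9 of the 14627 genes passed here, 0.0615% (0.00684% higher and 0.0547% lower), and 173 did so in DESeq2. The CPM values of 0 members were free of overlap, against 1.76% of all genes (0.875% higher and 0.889% lower). The median log2 fold change of the members was -0.04, against 0.0225 over all genes. A missed threshold does not show that the diets act alike, and the intervals of the differences are given with each member.

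**Figure D4:**
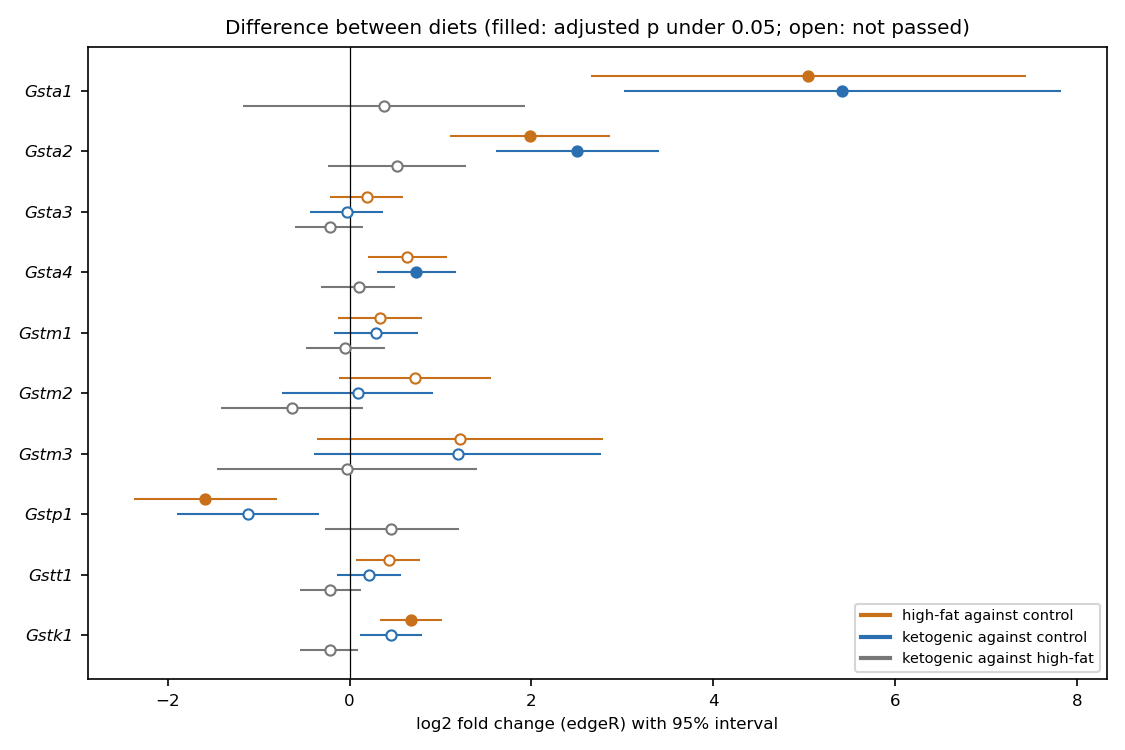
Log2 fold change of each member (rows) with its 95% interval (horizontal axis) for high-fat against control, ketogenic against control and ketogenic against high-fat livers, where filled points passed an adjusted p of 0.05. The filled points are Gsta1 and Gsta2 in both comparisons with control, Gstk1 and Gstp1 in high-fat livers and Gsta4 in ketogenic ones, and no point of ketogenic against high-fat is filled. The Gsta3 point for ketogenic against control, at -0.03, turns positive (0.11) with library totals in place of TMM.

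Gsta1 and Gsta2 were higher in all libraries of both diets than in every control. Both encode alpha class subunits that are low in untreated mouse liver and known to be inducible by antioxidants and electrophiles. Gsta1 was at 0.509, 0.153, 0.307 and 0 CPM in control replicates 2 to 5, which is 18 reads in all. In high-fat replicates 1 to 5 it was at 0.636, 6.75, 6.48, 6.76 and 20.1 CPM, and in ketogenic replicates 1 to 5 at 24.7, 5.02, 4.44, 3.58 and 15.2 CPM. High-fat replicate 1 stayed close to the controls, with 11 reads, and high-fat replicate 5 and ketogenic replicates 1 and 5 were the highest. The log2 fold change of Gsta1 was 5.04 ± 1.11 (SE) in high-fat (adjusted p = 0.0118, higher in 5 of 5 libraries) and 5.42 ± 1.11 in ketogenic livers (adjusted p = 0.00720, higher in 5 of 5). Because the control counts are so few, the size of this fold is poorly fixed, with 95% intervals of 2.65 to 7.44 and 3.02 to 7.82. The difference of ketogenic and high-fat livers was 0.38 (95% interval -1.17 to 1.93, adjusted p = 0.953).

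Gsta2 rose from 6.54 ± 1.78 CPM in controls to 25.8 ± 16 in high-fat and 37.1 ± 13.4 in ketogenic livers. The controls held 5.66, 6.41, 5.02 and 9.08 CPM. The high-fat libraries held 10.4, 22.0, 19, 25 and 52.7 CPM and the ketogenic ones 58.5, 27.6, 36.1, 24.4 and 39.0 CPM. High-fat replicate 1 was again the lowest of its group and just above the highest control. The rise was 3.95-fold in high-fat (log2 fold change 1.98 ± 0.41, adjusted p = 0.00733) and 5.68-fold in ketogenic livers (2.50 ± 0.42, adjusted p = 0.00150), in 5 of 5 libraries each. Ketogenic and high-fat livers differed by 0.52 (95% interval -0.24 to 1.28, adjusted p = 0.750). Without high-fat replicate 1 and ketogenic replicate 5, Gsta2 was at 2.19 (adjusted p = 0.00188) and 2.49 (adjusted p = 0.00101), and Gsta1 at 5.34 (adjusted p = 0.00404) and 5.26 (adjusted p = 0.00585).

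Of the copies in this cluster, Gm3776 was tested and rose in both comparisons with control. It had 4 reads in all controls, 280 in high-fat and 329 in ketogenic livers, and its log2 fold change was 5.51 ± 1.10 (adjusted p = 0.00528) and 5.54 ± 1.09 (adjusted p = 0.00438). Gm10639 had 1, 15 and 16 reads and was not tested. Since these genes share most of their 50-base windows, the counts of Gsta1, Gsta2, Gm3776 and Gm10639 were also summed. The sum ran from 5.38 to 9.13 CPM in controls, from 11.3 to 79.3 in high-fat and from 29.2 to 89.6 in ketogenic livers, and its log2 fold change came to 2.43 in high-fat (adjusted p = 0.00737) and 2.89 in ketogenic livers (adjusted p = 0.00243). The sum does not depend on how the counted reads were split within the cluster. It does depend on whether shared reads were left out or counted more than once, which is not known. A difference between Gsta1 and Gsta2 cannot be told apart from the handling of shared reads. The level of Gsta1 was 4.38 ± 3.98% of that of Gsta2 in controls, 27.2 ± 12.5% in high-fat and 25.3 ± 14.2% in ketogenic livers.

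Gsta4 encodes the alpha class enzyme that prefers 4-hydroxynonenal and related aldehydes from oxidised lipids. It went from 48.9 ± 11 CPM in controls to 75.9 ± 24.2 in high-fat and 81.2 ± 13.4 in ketogenic livers. The control libraries held 47.1, 42.2, 41.2 and 65.0 CPM, the high-fat ones 54.4, 71.0, 60.4, 77.6 and 116 CPM and the ketogenic ones 87.2, 70.3, 101, 68.2 and 79.3 CPM. All 5 ketogenic libraries lay above the highest control, and 3 of 5 high-fat ones did. The log2 fold change was 0.73 ± 0.21 in ketogenic livers (adjusted p = 0.0295) and 0.63 ± 0.21 in high-fat livers, where it missed the threshold (adjusted p = 0.0561). The direct difference of both diets was 0.10 (95% interval -0.31 to 0.50, adjusted p = 0.954). Neither call is firm. Leaving out control replicate 2 (adjusted p = 0.0610), 3 (0.0957) or 4 (0.101) or ketogenic replicate 1 (0.0662) or 3 (0.0523) ended the ketogenic call. The high-fat one was gained with DESeq2 (adjusted p = 0.0301), with library totals (adjusted p = 0.0268), without control replicate 5 (adjusted p = 0.0358), high-fat replicate 1 (adjusted p = 0.0250) or ketogenic replicate 3 (adjusted p = 0.0498), and without both libraries that stood apart (adjusted p = 0.0199).

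Gsta3 is the abundant alpha class gene of mouse liver, whose enzyme is known for clearing aflatoxin epoxide. It did not pass in any comparison. Levels were 1825 ± 341, 2085 ± 322 and 1784 ± 433 CPM in control, high-fat and ketogenic livers, and all groups overlapped. The log2 fold change was 0.19 (95% interval -0.21 to 0.59, adjusted p = 0.551) in high-fat and -0.03 (-0.43 to 0.37, adjusted p = 0.931) in ketogenic livers. Its windows are found in none of the other transferase transcripts. Per kb of transcript, the alpha class in the control livers was thus nearly all Gsta3, and the rise of Gsta1 and Gsta2 left them far below it.

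**Figure D5:**
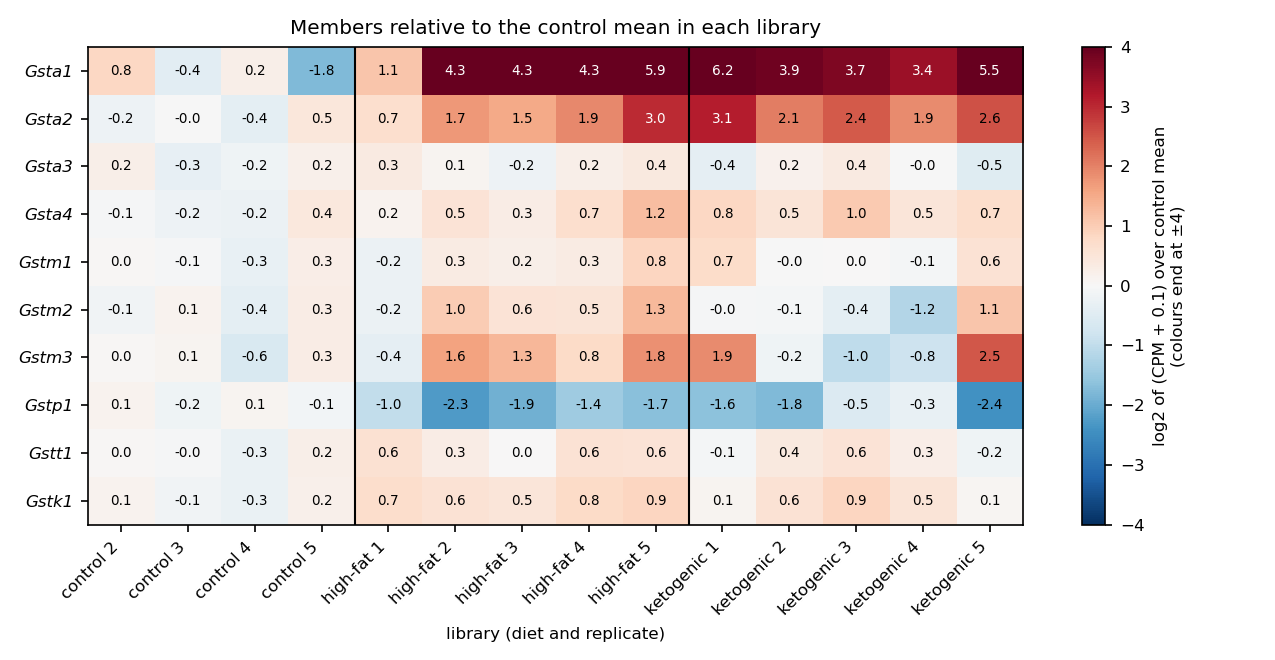
Log2 of (CPM + 0.1) over the control mean, for each member (rows) in each of the 14 libraries (columns, by diet and replicate), with colours that end at 4 in both directions. Gsta1 and Gsta2 are above the control mean in all high-fat and ketogenic libraries and Gstp1 is below it in all of them, and the Gstm3 row is high in ketogenic replicates 1 and 5 and lowest in ketogenic replicates 3 and 4.

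Gstp1 fell in high-fat livers. Its enzyme conjugates many electrophiles and also binds the stress kinase JNK. The control libraries held 1828, 1468, 1791 and 1537 CPM. The high-fat libraries held 839, 342, 434, 620 and 524 CPM and the ketogenic ones 530, 488, 1135, 1343 and 306 CPM. All 10 libraries of both diets lay below the lowest control, but ketogenic replicates 3 and 4 came close to it, and high-fat replicate 1 was the highest of its group. The log2 fold change was -1.59 ± 0.37 in high-fat livers (adjusted p = 0.0125, lower in 5 of 5), a 3.00-fold lower level. In ketogenic livers it was -1.12 ± 0.36 and missed the threshold (adjusted p = 0.0591), although 5 of 5 libraries were lower.

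That ketogenic value passed with DESeq2 (adjusted p = 0.0121), with library totals (adjusted p = 0.0441) and without ketogenic replicate 3 (adjusted p = 0.0355) or 4 (adjusted p = 0.0164). Over all alternatives its adjusted p ran from 0.0121 to 0.167. The direct difference of ketogenic and high-fat livers, 0.46 (95% interval -0.27 to 1.20, adjusted p = 0.784), did not pass, so the effects of both diets on Gstp1 were not shown to differ. Without both libraries that stood apart, the values were -1.79 (adjusted p = 0.00121) and -0.92 (adjusted p = 0.0580). Summed with Gstp2 and Gstp3, Gstp1 was at -1.55 (adjusted p = 0.0121) in high-fat and -1.11 (adjusted p = 0.0550) in ketogenic livers. Gstp2, whose level was 0.866 ± 0.0662% of that of Gstp1 in controls, also fell in high-fat livers, from 14.4 ± 2.42 to 6.08 ± 1.24 CPM (log2 fold change -1.24 ± 0.27, adjusted p = 0.00847). Because 62.3% of the windows of Gstp1 are shared with Gstp2, the value of Gstp2 alone is uncertain.

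Hepatocytes of different zones of the liver lobule express different enzymes, and markers of both zones are given beside the Gstp1 values. The sum of the periportal markers lay between 12126 and 17429 CPM in control, between 10254 and 14377 in high-fat and between 7331 and 11530 in ketogenic livers, with 1 of 12 higher and 2 lower in high-fat and 4 lower in ketogenic livers. The pericentral sums ran from 10429 to 13678, 9437 to 14001 and 7386 to 18265 CPM, with 1 of 14 higher in each comparison. No marker of either list was at 0 in all libraries. Their part in the Gstp1 result was not tested.

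Gstm1, Gstm2 and Gstm3 did not pass in any comparison of all 14 libraries. Mu class enzymes conjugate epoxides and quinones, and Gstm1 had the highest level per kb of these 3. Gstm1 was at 856 ± 136, 1082 ± 294 and 1047 ± 288 CPM in control, high-fat and ketogenic livers, with log2 fold changes of 0.34 (adjusted p = 0.334) and 0.29 (adjusted p = 0.407). Its highest libraries were high-fat replicate 5 (1540 CPM) and ketogenic replicates 1 (1436 CPM) and 5 (1276 CPM), and the other libraries of these diets ran up to 1080 CPM, close to the highest control (1026 CPM).

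Gstm3 varied widely within both fat-rich diets. The controls held 25.8, 26.8, 16.5 and 31.1 CPM and the high-fat libraries 19.6, 76.7, 63.7, 42.5 and 88.5 CPM. The ketogenic libraries held 93.4, 22.3, 12.4, 14.1 and 142 CPM. In high-fat livers replicate 1 was within the control range and the other 4 above it, and in ketogenic livers replicates 1 and 5 were above every control while replicates 3 and 4 were below. The log2 fold changes of 1.22 ± 0.72 (adjusted p = 0.303) and 1.19 ± 0.72 (adjusted p = 0.309) did not pass, with 95% intervals of -0.36 to 2.79 and -0.39 to 2.76. The ketogenic value was 0.49 without ketogenic replicate 5 (edgeR, adjusted p = 0.690) and 0.51 without both libraries that stood apart (adjusted p = 0.651). The high-fat value was 1.44 without both (edgeR, adjusted p = 0.130), and the difference between the fat-rich diets, ketogenic against high-fat, was then -0.93 (adjusted p = 0.455), and -0.03 in all libraries (adjusted p = 0.994).

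Gstm2 was at 29.1, 35.5, 24.7 and 39.1 CPM in controls. It was at 27.3, 65.2, 47.2, 45.5 and 79.1 CPM in high-fat and at 31.1, 30.6, 24.6, 14.3 and 70.1 CPM in ketogenic livers. The high-fat libraries other than replicate 1 lay above the controls, whereas the ketogenic ones other than replicate 5 did not. With all libraries the log2 fold changes were 0.72 ± 0.39 in high-fat (adjusted p = 0.253), 0.09 ± 0.39 in ketogenic (adjusted p = 0.906) and -0.63 ± 0.36 between ketogenic and high-fat livers (adjusted p = 0.673). Without high-fat replicate 1 and ketogenic replicate 5 they were 0.89 (adjusted p = 0.0193), -0.35 (adjusted p = 0.392) and -1.24 (adjusted p = 0.0136). Gstm2 was then the 1 member called between ketogenic and high-fat livers, where 636 genes passed in all. These 2 libraries therefore decide its values, and Gstm2 differed between the diets only in this choice, made after seeing the data. Summed over the 7 mu class genes, the log2 fold changes were 0.32 (adjusted p = 0.365) and 0.23 (adjusted p = 0.521).

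Gstk1, the kappa class enzyme of mitochondria and peroxisomes, rose in high-fat livers. The controls held 87.9, 72.7, 66.4 and 90.7 CPM and the high-fat libraries 128, 119, 112, 135 and 144 CPM. The ketogenic libraries held 85.2, 118, 145, 113 and 83.2 CPM. All 5 high-fat libraries, replicate 1 among them, were above the highest control, and 3 of the 5 ketogenic ones were. The log2 fold change was 0.68 ± 0.16 in high-fat livers (adjusted p = 0.0125), a 1.6-fold rise that was lost without control replicate 4 (adjusted p = 0.0549). In ketogenic livers it was 0.46 ± 0.16 (adjusted p = 0.0742). It passed there with library totals (adjusted p = 0.00373), without ketogenic replicate 5 (adjusted p = 0.0322) and without both libraries that stood apart (adjusted p = 0.0314). The direct difference was -0.22 (95% interval -0.54 to 0.09, adjusted p = 0.736).

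Gstt1, of the theta class, was at 215 ± 29.8 CPM in control, 289 ± 47.8 in high-fat and 250 ± 53.5 in ketogenic livers. Of the high-fat libraries 4 of 5 and of the ketogenic libraries 3 of 5 were above the highest control. The log2 fold change was 0.43 ± 0.17 in high-fat livers and did not pass (adjusted p = 0.114), except with library totals (0.54, adjusted p = 0.00969). In ketogenic livers it was 0.21 ± 0.17 (adjusted p = 0.431).

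The other glutathione transferase genes were taken from a list of 23, of which 21 were in the table and 18 were tested. The list also holds Faah, a fatty acid amide hydrolase and no transferase, which did not pass. In high-fat livers 2 rose and 1 fell, and in ketogenic livers 3 rose and 3 fell. That is 16.7% and 33.3% of those tested, against 12.0% and 12.1% of all genes. Between ketogenic and high-fat livers 0 differed. The median log2 fold changes were 0.04, 0.01 and -0.09, near those of all genes. Mgst3, a microsomal membrane enzyme that also reduces lipid peroxides, rose in both, from 10.2 ± 1.45 CPM to 27.5 ± 11.4 in high-fat (log2 fold change 1.42 ± 0.24, adjusted p = 0.00143) and 23.9 ± 3.52 in ketogenic livers (1.22 ± 0.24, adjusted p = 0.00320). Gstm4 rose from 21.7 ± 4.54 CPM to 32.7 ± 4.94 (adjusted p = 0.0496) and 33.8 ± 8.71 (adjusted p = 0.0339). In ketogenic livers Gstm6 fell from 81.8 ± 16.1 to 43.2 ± 6.51 CPM (log2 fold change -0.92 ± 0.15, adjusted p = 0.00110) and Gstm7 from 48.6 ± 3.85 to 32.0 ± 5.30 CPM (-0.61 ± 0.12, adjusted p = 0.00410). The mu class held genes that rose and genes that fell in ketogenic livers. The Gstm4 calls are the weakest: they were lost in 14 of 22 and 6 of 22 alternatives, with adjusted p up to 0.160 and 0.116. Among these were the fits without control replicate 3, 4 or 5, without high-fat replicate 2, 3, 4 or 5 or ketogenic replicate 2, 3 or 4 (high-fat livers) and without ketogenic replicate 1 (ketogenic livers).

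Also in ketogenic livers, Gstp3 fell (-0.61 ± 0.17, adjusted p = 0.0262) with overlapping groups, and its call was lost with library totals (adjusted p = 0.124) and without control replicate 2 or 5 or ketogenic replicate 1, 2 or 4 (adjusted p from 0.0526 to 0.0866). Hpgds, the glutathione-dependent prostaglandin D synthase known from immune cells, rose there (1.99 ± 0.61, adjusted p = 0.0448), also with overlap: ketogenic replicate 5 held 14.8 CPM and the other ketogenic libraries 1.23 to 3.23 CPM. Without that library the log2 fold change was 0.92 (adjusted p = 0.0670), and the call was lost in 16 of 23 alternatives, among them the fits without any 1 of the control or high-fat libraries or ketogenic replicate 1. That library also had the highest sum of macrophage and Kupffer cell markers, 1257 CPM, against 351 to 472 CPM in the other ketogenic livers and 371 to 590 CPM in controls, and the part of those cells in the Hpgds value was not tested.

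Glutathione, the shared substrate, is made from cysteine, glutamate and glycine, kept reduced by glutathione reductase and exported as conjugates by ABCC pumps. Of 39 tested genes of its synthesis, recycling and breakdown, 6 rose and 1 fell in high-fat livers. In ketogenic livers 6 rose and 2 fell. That is 17.9% and 20.5% of the list, against 12.0% and 12.1% of all genes, and 0 passed between both diets. Abcc3, an efflux pump for conjugates, rose from 82.0 ± 36.4 CPM to 301 ± 65.4 in high-fat (adjusted p = 0.00109) and 303 ± 87.2 in ketogenic livers (adjusted p = 0.000743). Gpx4, the glutathione peroxidase of membrane lipids, rose in high-fat livers from 191 ± 33.4 to 345 ± 75.4 CPM (adjusted p = 0.00332), and Ggct, which breaks down gamma-glutamyl peptides, rose by 0.94 ± 0.22 there (adjusted p = 0.0125) and by 0.95 ± 0.22 in ketogenic livers (adjusted p = 0.0106). In ketogenic livers Gpx7 rose at low levels, from 0.916 ± 0.287 to 2.49 ± 0.613 CPM (1.44 ± 0.27, adjusted p = 0.00252). Ggt6 fell there (-0.70 ± 0.14, adjusted p = 0.00414), though its call was lost with library totals (adjusted p = 0.0559). The list's median log2 fold changes of 0.06 and 0.09 lay near those of all genes and most of its genes did not pass.

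Reference genes known as NRF2 targets, with none of the 10 members among them, were counted beside the transferases. Of 20 tested, 7 rose and 0 fell in high-fat livers (35.0%), and 6 rose and 3 fell in ketogenic livers (45%). Over all genes 12.0% and 12.1% were called. The medians of the list were 0.21 and 0.29. Nqo1, a quinone reductase, was at 3.43 ± 1.07 CPM in controls and 11.1 ± 2.80 in high-fat livers, and in ketogenic livers it rose by 1.56 ± 0.27 (adjusted p = 0.00155). Ephx1, the microsomal epoxide hydrolase, rose from 186 ± 10.5 to 324 ± 64.4 (adjusted p = 0.00368) and 371 ± 61.2 CPM (adjusted p = 0.000612). Aox1, an aldehyde oxidase, rose from 58.7 ± 8.91 to 117 ± 14.3 (adjusted p = 0.00297) and 139 ± 42.7 CPM (adjusted p = 0.000488). In the other direction, Me1, the malic enzyme that also serves fat synthesis, fell in ketogenic livers from 367 ± 89.7 to 129 ± 30.9 CPM (log2 fold change -1.51 ± 0.21, adjusted p = 0.000267).

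Of 23 tested regulators of these genes, 4 rose and 0 fell in high-fat and 3 rose and 1 fell in ketogenic livers. That is 17.4% of the list in each, against 12.0% and 12.1% of all genes. Nr1i3, which encodes CAR, rose in ketogenic livers from 144 ± 18.4 to 392 ± 98.6 CPM (1.44 ± 0.21, adjusted p = 0.000377). In high-fat livers its log2 fold change was 0.79 ± 0.21 (adjusted p = 0.0219), a call lost without control replicate 4 or 5 or high-fat replicate 3 or 5 (adjusted p from 0.0525 to 0.0821). Nfe2l1, a relative of NRF2, rose by 0.54 ± 0.10 (adjusted p = 0.00252) and 0.47 ± 0.10 (adjusted p = 0.00564), and Mafk, a small partner protein of NRF2, by 0.75 ± 0.20 (adjusted p = 0.0213) and 0.70 ± 0.20 (adjusted p = 0.0278). The Mafk calls were lost without control replicate 2, 4 or 5, and also without high-fat replicate 3 or 5 or ketogenic replicate 1 or 5 (adjusted p up to 0.0614 and 0.0833). Of 26 tested targets of CAR, PXR and AHR, 6 rose and 1 fell in high-fat (26.9%) and 4 rose and 2 fell in ketogenic livers (23.1%). Aldh1a1, an aldehyde dehydrogenase, rose from 847 ± 168 to 1913 ± 209 CPM (adjusted p = 0.000962) and 2158 ± 452 CPM (adjusted p = 0.000261), and Aldh1a7, its close relative, went from 121 ± 23.5 CPM to 302 ± 23.7 (adjusted p = 4.43e-05) and 310 ± 34.6 CPM (adjusted p = 2.55e-05).

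Since Gstp1 is known as male-biased in mouse liver, other sex-biased genes were counted. Of 22 tested male-biased genes, 0 rose and 5 fell in high-fat livers (22.7%) and 0 rose and 3 fell in ketogenic livers (13.6%). Over all genes 12.0% and 12.1% were called in these comparisons. The median log2 fold changes of the male-biased genes were -1.58 and -1.05, and 0.73 between ketogenic and high-fat livers, where 0 were called. Those of Gstp1 were -1.59, -1.12 and 0.46. A link between this list and Gstp1 was not tested. Female-biased genes held 18 that could be tested: in high-fat livers 9 of these were called higher and 1 lower (55.6%), in ketogenic livers 6 and 2 (44.4%). Between ketogenic and high-fat livers 1 of them fell (5.56%), against 0.0615% of all genes called there. It was Cyp17a1, a steroid hydroxylase, from 71.0 ± 23.2 CPM in high-fat to 7.84 ± 4.12 CPM in ketogenic livers (-3.17 ± 0.33, adjusted p = 0.00201). Cyp17a1 also rose in high-fat livers against control (2.14 ± 0.34, adjusted p = 0.00141).

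The genes whose pattern over the 14 libraries was most like that of Gsta2, the member with the smallest adjusted p in both comparisons with control, were Ephx1 (Pearson r = 0.959 of log2 CPM), Prune1 (0.936), Psap (0.928), Ehhadh (0.928) and Plin4 (0.927). They are named as a description, without a test, and the values share the libraries, their depth and the difference between diets. The sum of stellate cell and fibroblast markers lay between 467 and 507 CPM in control, between 619 and 837 in high-fat and between 554 and 1003 in ketogenic livers, with 6 of 12 higher in high-fat and 5 of 12 in ketogenic livers. Pancreatic acinar markers ran from 27.0 to 2158 CPM, 138 to 954 and 7.18 to 444 CPM. The 2158 CPM came from control replicate 2, and control replicates 3 to 5 held 27.0, 78.0 and 217 CPM. The 954 CPM came from high-fat replicate 1. In both comparisons with control 0 of 19 were called, against 12.0% and 12.1% of all genes. No marker of either list was at 0 in all libraries, and their part in the transferase values was not tested.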

How the data were processed

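The authors deposited 1 table of raw read counts by Ensembl gene ID for 15 libraries. Per the labels' protocols, these were poly(A)-selected and prepared with a strand-specific kit. Tools named by the submitters' processing notes, without role or order, are cutadapt 1.16, STAR 2.7.9a, featureCounts 1.6 and DESeq2 1.36.0, with the build GRCm39. Not given in the sources used here are the annotation release and the settings for strand and multi-mapping reads. Symbols and transcript lengths came from GENCODE M21 (GRCm38) and matched 98.17% of the 14627 genes tested.

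Control replicate 1 was left out. The filter on low counts was filterByExpr with a minimum count of 10 and a minimum total of 15; scaling was by TMM (factors 0.886 to 1.22). Genes were then tested over 14 libraries in 1 fit by diet with edgeR 4.0.16 (robust glmQLFit, two-sided glmQLFTest, R 4.3.3). P-values were Benjamini-Hochberg adjusted over all genes, threshold 0.05. The SE is the absolute log2 fold change divided by the square root of F. The fit was tested on simulated data. Alternatives were other scalings and filters, DESeq2 1.42.0, a replicate block, library number, fewer libraries and summed copies.

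The members, lists, tests and alternatives were chosen with earlier results of these data known. All 10 members are named; of each list up to 3 genes per comparison with the smallest adjusted p and at least 1 CPM were taken, or else the most abundant one, and the text prints part of these. Gm3776, Gm10639 and the further transferases that passed were named after their values were seen.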

Additional observations from a re-analysis of the deposited data

Results flagged for a closer look

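Control replicate 1, which the submitters left out as contaminated, entered no comparison, and its values are given as CPM of its own total count, without TMM. Against the range of the other 4 controls on that scale, 5 members lay above it, 4 within it and 1 below. Those above were Gsta2 at 12.1 CPM (other controls 4.56 to 8.03), Gstm1 at 1089 CPM (634 to 908), Gstm2 at 48.8 CPM (22.4 to 34.6), Gstm3 at 33.5 CPM (15.0 to 27.5) and Gstt1 at 228 CPM (163 to 222). Gstp1 lay below, at 919 CPM (1360 to 1754). Gsta1 had 7 reads in this library. In the 30 groups of a member and a diet, no library stood far enough from the rest of its group to pass Dixon's 95% critical value. With 4 or 5 libraries per group this check can miss a library that stands apart. Of 2 high libraries, such as ketogenic replicates 1 and 5 for Gstm3 (93.4 and 142 CPM), each can hide the other.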

How the results depend on the processing

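The calls of Gsta1 and Gsta2 in both comparisons with control and of Gstp1 in high-fat livers held, with their direction, under all alternatives run, leaving out each library in turn among them, with adjusted p up to 0.0423, 0.0327 and 0.0469 in high-fat livers and up to 0.0296 and 0.00848 in ketogenic ones. Leaving out 1 library gave 3 to 5 members called in high-fat, 2 to 4 in ketogenic and 0 between both diets. With library totals in place of TMM, which shift the median gene by 0.127, 0.177 and 0.050 (log2), 6 members passed in high-fat and 5 in ketogenic livers, and the split over all genes became 1302 higher and 420 lower, and 1826 and 368. With both libraries that stood apart left out, 1 member passed between the diets, and all genes called were 3239 in high-fat livers. Between ketogenic and high-fat livers all genes called were 26 without the filter, 15 with library totals, 173 with DESeq2, 15 with the replicate block, 3 with library number, 1 with only both diets fitted and 636 without both libraries. Leaving out 1 library gave 934 to 2617, 1056 to 2201 and 1 to 315 genes (315 without ketogenic replicate 5).

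Values near 0 changed sign. In ketogenic against control livers, Gsta3 was at 0.11 with library totals and 0.06 without both libraries (-0.15 to 0.05 leaving out 1), and Gstm2 at -0.35 without both (-0.37 to 0.28). Between ketogenic and high-fat livers, Gsta1 was at -0.08 without both (-0.21 to 1.04), Gsta4 ran from -0.0012 to 0.30, Gstm1 was at 0.02 with library totals (-0.19 to 0.11) and Gstm3 at 0.12 (-0.71 to 0.23). The cause was not tested.

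Same-numbered libraries deviated from the means of their diets with r from -0.404 to 0.418 over 13 pairs (median -0.000361). For the 52 pairs with other numbers r ran from -0.490 to 0.443 (median 0.0136). Replicate numbers thus showed no sign of pairing, but so few pairs cannot exclude it. With the replicate block, 1380, 1297 and 15 genes and 4, 4 and 0 members were called, and Gstp1 passed in ketogenic livers (-1.32, adjusted p = 0.0436), while Gstm3 in ketogenic livers was at 0.66 (adjusted p = 0.609). Few reads limit Gsta1 in controls. Of 37 calls on 23 other genes named in the text, 29 held under all alternatives and 8 were lost under some, and none changed sign.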
